A study of Mus musculus with 15 samples.

Results

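The 8 GIMAP genes, Gimap1, Gimap3, Gimap4, Gimap5, Gimap6, Gimap7, Gimap8 and Gimap9, were followed in CD8+ T cells before and after antigen stimulation. They are the rows of the count tables that carry these symbols, and all 8 were present among 17493 genes and passed the filter on low counts, which 10831 genes passed. The cells were CD8+ OT-I T lymphocytes isolated from the spleen and lymph nodes of OT-1 mice, C57BL/6-Tg(TcraTcrb)1100Mjb/Crl, all female, whose transgenic T cell receptor recognises an ovalbumin peptide on MHC class I. The mice's age was not given in the sources used here. RNA was measured in 15 libraries, in 5 groups of 3. Unstimulated cells were taken at 0 h without treatment. The immunofilament (IF) groups were stimulated for 8 h or 22 h with 5 ng/ml of synthetic filaments carrying interleukin-2 and MHC that holds SIITFEKL, an altered form of that peptide. The dendritic cell (DC) groups were stimulated for 8 h or 22 h with 20000 dendritic cells per well, generated with Flt3 ligand and pulsed with the same peptide. Stimulated wells held 50000 T cells, and interleukin-2 is named only for the filaments. Cells were sorted as viable, CD8+ and CD103- before lysis. Replicates are labelled as donors 1 to 3, but no label says that they were separate animals, so the p-values measure the spread between these libraries, which may be partly technical.

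GIMAP proteins (GTPases of immunity-associated proteins) are small GTPases found mainly in lymphocytes, most of them on internal membranes such as endoplasmic reticulum, lysosomes or mitochondria. They share a guanine-nucleotide-binding domain, the AIG1 domain, and are known for keeping resting T cells alive. GIMAP1 and GIMAP5 are each needed for normal numbers of peripheral T cells in mice, GIMAP4 has been tied to the timing of T cell death, and GIMAP6 to autophagy through a protein of the ATG8 family. Members of the family have also been reported to bind proteins of the BCL2 family, which control mitochondrial cell death.

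The 8 genes lie side by side on chromosome 6, at chr6:48647234-48770851 of the GRCm38 (mm10) assembly, a span of 123.618 kb in the order Gimap8, Gimap9, Gimap4, Gimap6, Gimap7, Gimap1, Gimap5 and Gimap3. Of these, 6 are on the plus strand, and Gimap6 and Gimap3 are on the minus strand. A feature of their nucleotide-binding domain is the P-loop, a glycine-rich stretch that holds the phosphates of the nucleotide and is also found in other nucleotide-binding proteins. Its coding sequence is shown for every match in the GENCODE vM21 transcripts, 24 bases each, all within coding exons, with the first glycine codon and the last 3 codons (glycine, lysine and serine) in capitals.
Gimap4 (chr6:48690421-48690444, plus strand): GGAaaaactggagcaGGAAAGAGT
Gimap9 (chr6:48677523-48677546, plus strand): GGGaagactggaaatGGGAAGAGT
Gimap7 (chr6:48723524-48723547, plus strand): GGGaaaacaggaagtGGAAAGAGC
Gimap6 (chr6:48702750-48702773, minus strand): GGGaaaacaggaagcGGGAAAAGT
Gimap1 (chr6:48742552-48742575, plus strand): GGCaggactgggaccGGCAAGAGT
Gimap5 (chr6:48752594-48752617, plus strand): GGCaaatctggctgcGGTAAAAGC
Gimap3 (chr6:48765887-48765910, minus strand): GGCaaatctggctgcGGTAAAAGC
Gimap8, match 1 (chr6:48650256-48650279, plus strand): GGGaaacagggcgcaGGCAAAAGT
Gimap8, match 2 (chr6:48656119-48656142, plus strand): GGGaagcgtggtgttGGGAAAAGT
Gimap8, match 3 (chr6:48658746-48658769, plus strand): GGAaggagtggggctGGAAAGAGT
Gimap8 holds 3 such stretches in a coding sequence of 2064 bases, and each other member holds 1 in 873 to 984 bases. The stretches of Gimap5 and Gimap3 are identical, and the whole coding sequences of these neighbours matched at 90.7% of aligned bases, the highest of 28 pairs. This matters for the counts, since reads of near-identical genes can be assigned to either. CEL-seq reads come from the 3′ ends of transcripts, and in the last 500 bases of each member's transcript none of the 441 windows of 60 bases was shared with another member. Over whole transcripts, Gimap5 and Gimap3 shared 129 such windows. Gimap7, Gimap1 and Gimap5 share 3.48%, 6.44% and 3.69% of their exonic bases with the readthrough gene Gm28053 on the same strand, and Gimap1 shares 36.0% with Gimap1os on the opposite strand. Whether the authors' counting used strand was not given in the sources used here, so values of Gimap1 can include reads of Gimap1os.

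The libraries held 2892874 to 19806730 counts, and each member had at least 135 counts in every library. Levels are given as CPM, counts relative to the library's total after TMM scaling, which evens out differences in RNA composition. The labelled cell type was borne out by its own markers: 10 of the 11 CD8 T cell markers were in the tables, each with at least 340 counts in every library. Of 3 CD4 T cell markers, Cd4 had no count in 14 of 15 libraries and Foxp3 in 11. The third, Zbtb7b, had 2 to 67 counts and was in every library. The summed level of the 10 CD8 T cell markers was 10982 to 11883 CPM in unstimulated libraries and 5032 to 7747 CPM in the 12 stimulated ones, and the part of this difference in the results below was not tested. The summed level of 18 dendritic cell markers was 647 to 1535 CPM in unstimulated cells. At 8 h it was 213 to 471 CPM with IF against 857 to 1240 with DC, and at 22 h 373 to 629 CPM with IF against 470 to 640 with DC. Among the defining ones, Zbtb46 was at 0 in 6 libraries and Clec9a in 5, while Xcr1 and Flt3 were each at 0 in 1. Replicates 2 and 3 of IF 22 h stood apart, with 0.179% and 0.146% of their counts in mitochondrial rRNA against 1.82% to 4.49% in the other 13 libraries. In bulk samples, fewer cells of a type and less RNA per cell cannot be told apart.

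On stimulation, Gimap4 was higher after 8 h with filaments, the only member past the threshold in the 9 comparisons as fitted by edgeR to all 15 libraries with TMM scaling and no pairing. When the DC libraries were paired by replicate number, a fit chosen after seeing the data, Gimap7 was also called, higher at DC 22 h than at DC 8 h. The summed level of the 8 genes was 1580 ± 48.3 CPM (SD, n = 3) in unstimulated cells. With IF it was 1741 ± 36.9 CPM at 8 h and 1783 ± 62.2 at 22 h, and with DC 1550 ± 146 at 8 h and 1665 ± 283 at 22 h, all n = 3. The direction of the sum depends on the scaling: as a share of all counts of the library it was 0.133% to 0.139% in the unstimulated libraries and 0.144% to 0.209% in the 12 stimulated ones, with DC 8 h (mean 0.161%) then above unstimulated cells (0.137%). The 95% interval of the fold change against unstimulated cells lay within 2-fold in either direction for 7 of 8 members in each of the 4 stimulated groups, all but Gimap8. The same held for 41.8% (8 h) and 45.3% (22 h) of all genes with IF, and for 44.5% and 43.1% with DC.

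**Figure D1:**
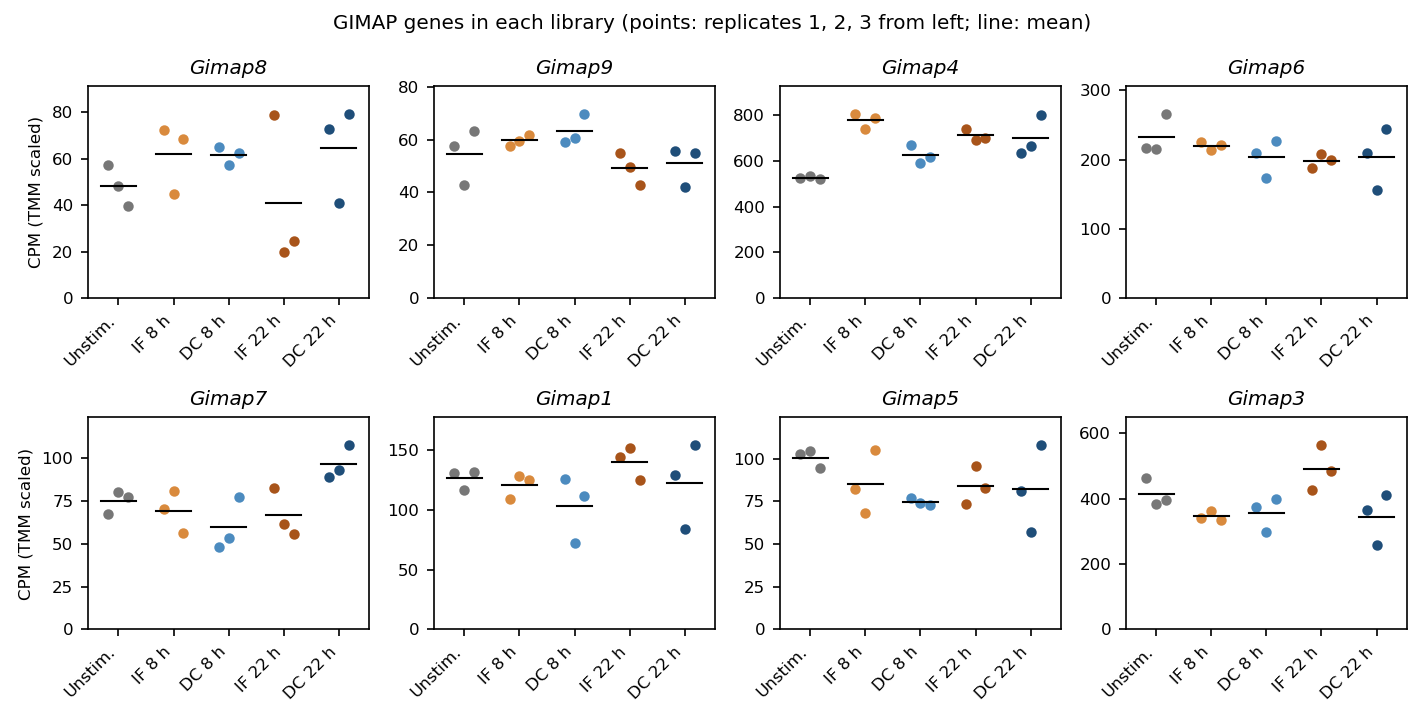
Level of each GIMAP gene in CPM (vertical axis, from 0) in 5 groups of 3 libraries (horizontal axis), in the order of the genes along chromosome 6. Points are libraries and lines are means. All 12 stimulated libraries exceed the 3 unstimulated ones for Gimap4, and 2 of the 3 IF 22 h libraries are low for Gimap8.

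Gimap4, the member tied to the timing of T cell death, was 521, 525 and 536 CPM in the unstimulated libraries. It was 741, 786 and 807 CPM at IF 8 h and 590, 618 and 671 CPM at DC 8 h. At 22 h it was 691, 702 and 741 CPM with IF and 635, 666 and 800 CPM with DC. All 12 stimulated libraries were thus above all 3 unstimulated ones, a separation found upwards in 2.82% of all genes tested and downwards in 5.35%. No other member had it in either direction. Some markers of other cell types separated the same libraries: the summed level of 5 NK cell markers, mostly Gzma, was 236 to 266 CPM before stimulation and 58.9 to 182 CPM after it. Group means of the NK markers Klrb1c and Klre1 were 6.23 and 7.47 CPM before, and 4.29 to 12.5 and 4.42 to 10.2 after. The sum of 6 myeloid markers was 8.31 to 22.3 CPM before and 0 to 2.96 CPM after. Among the NK and myeloid markers, Ncr1 was at 0 in 12 libraries, Klra8 in 15 and Lyz2 in 8. The sum of 7 B cell markers was 28.0 to 30.5 CPM before and 6.33 to 46.0 after, and sums of CD4 T cell and dendritic cell markers overlapped too. The part of any of these cells in the Gimap4 values was not tested. Against unstimulated cells, Gimap4 rose 1.48-fold at IF 8 h (95% interval 1.23 to 1.77), or 0.56 ± 0.13 (SE) as log2 fold change, and edgeR's quasi-likelihood test gave an adjusted p of 0.0120. It was thus 1 of 8 members called higher, in a comparison where 3.04% of all genes were called higher and 4.72% lower. The call was lost without unstimulated replicate 3 (log2 fold change 0.55, edgeR adjusted p 0.0506) and without IF 8 h replicate 1 (0.53, adjusted p 0.0503). The log2 fold change was 0.43 ± 0.12 after 22 h with IF (edgeR adjusted p 0.0506). With DC it was 0.25 ± 0.12 after 8 h (adjusted p 0.272) and 0.41 ± 0.12 after 22 h (adjusted p 0.0548), and none of the 3 passed 0.05. With library size as the only scaling all 3 passed it, at 0.64 for IF 22 h (edgeR adjusted p 0.00459) and 0.51 and 0.74 for DC 8 h and 22 h (0.0148 and 0.00165). In the same order, that scaling called 838, 1079 and 1586 of all genes, beside 658, 739 and 840 with TMM. DESeq2 called Gimap4 at IF 22 h (0.42, adjusted p 0.00542) and at DC 22 h (0.41, adjusted p 0.00569). The 3 unstimulated libraries are shared by these 4 comparisons. Between the stimuli at 8 h, Gimap4 was 0.31 ± 0.12 higher with IF than with DC on the log2 scale, and the edgeR adjusted p was 0.470. The ranges did not overlap, as for 5.8% of genes upwards and 7.7% downwards.

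A measure that does not depend on library scaling is the share of the 8 genes' counts that each gene takes. This is a share of counts, not of molecules. Gimap4 took 33.4% ± 1.46 (SD, n = 3) of them in unstimulated cells. With IF its share was 44.7% ± 1.03 at 8 h and 39.9% ± 2.09 at 22 h, and with DC 40.5% ± 2.54 and 42.4% ± 4.69, all n = 3. The unstimulated libraries ran from 32.4% to 35.1% and the 12 stimulated ones from 37.6% to 47.7%, so the groups did not overlap here either. Gimap5 showed the opposite order, with a share of 5.93% to 6.83% before stimulation and 4.002% to 5.96% after it, ranges that overlap slightly. Gimap6 did so too, with 13.4% to 16.8% before stimulation and 10.5% to 13.9% after it. Shares of this kind show that the genes moved unequally and do not show which of them stayed the same.

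**Figure D2:**
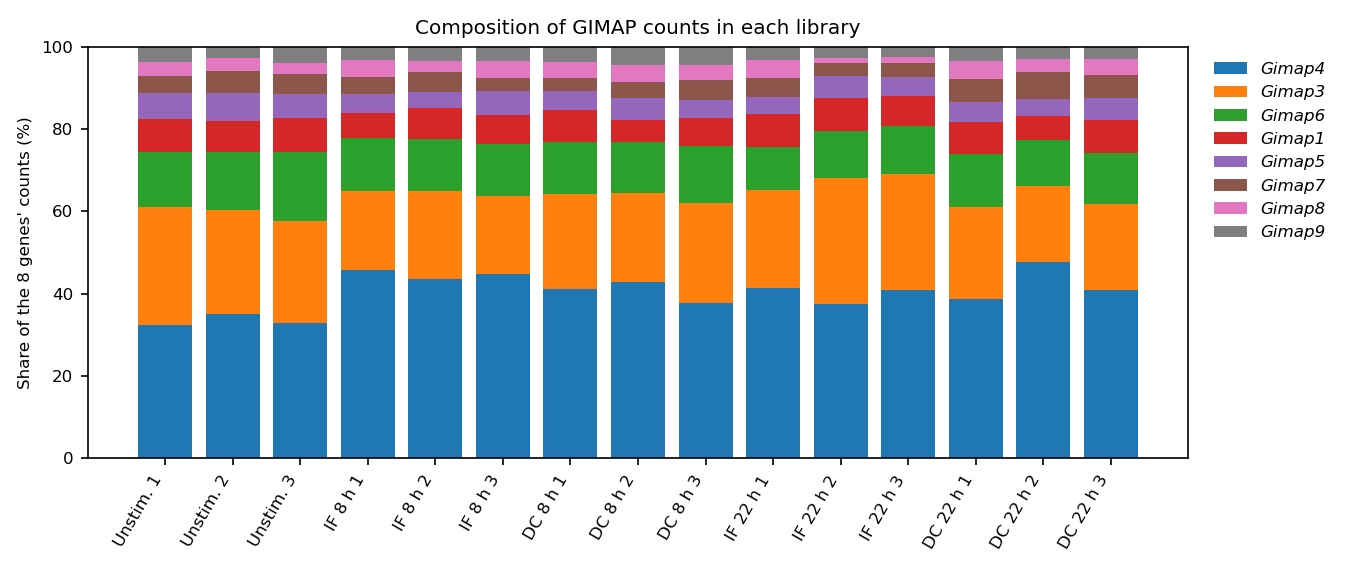
Share of the summed GIMAP counts taken by each of the 8 genes (vertical axis, percent) in each of the 15 libraries (bars, replicates 1 to 3 of each group). The Gimap4 segment covers 32.4% to 35.1% before stimulation and 37.6% to 47.7% after it.

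In that same TMM-scaled fit, edgeR called none of the other 7 members against unstimulated cells in any group. Gimap7 and Gimap8 each had a call in another setting, given with their values. With IF their log2 fold changes ran from -0.26 to 0.36 at 8 h (smallest edgeR adjusted p 0.408) and from -0.26 to 0.24 at 22 h (0.480). With DC they ran from -0.43 to 0.35 at 8 h (0.267) and from -0.29 to 0.41 at 22 h (0.314). With edgeR, 0 of 8 members were called at DC 8 h, where 6.82% of all genes were (2.75% higher, 4.07% lower). The same 0 of 8 stood against 6.08% at IF 22 h (2.63% higher, 3.44% lower) and 7.76% at DC 22 h (3.41% higher, 4.35% lower). In the same order, 0, 1 and 1 members had an unadjusted p under 0.05, beside 20.9%, 20.5% and 22.2% of all genes. DESeq2 called 0, 1 and 1 members, beside 10.9%, 9.85% and 11.7% of all genes. At IF 8 h the count was 1 of 8 by either measure, beside 22.9% of all genes by unadjusted p and 11.7% by DESeq2. The median log2 fold change of the 8 members was -0.07 and -0.20 at 8 h (IF, then DC) and -0.16 and -0.07 at 22 h, beside 0.02, 0.04, 0.01 and 0.04 for all genes. In each of these comparisons 3 members were higher and 5 lower. That split depends on the scaling: with library size alone, 6, 5, 5 and 8 members were higher, and the median of all genes moved to 0.26, 0.30, 0.22 and 0.37. The TMM factors were 0.857 to 0.872 in unstimulated and 0.951 to 1.11 in stimulated libraries. Gimap4 was higher under all 3 scalings tried in all 4 groups.

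**Figure D3:**
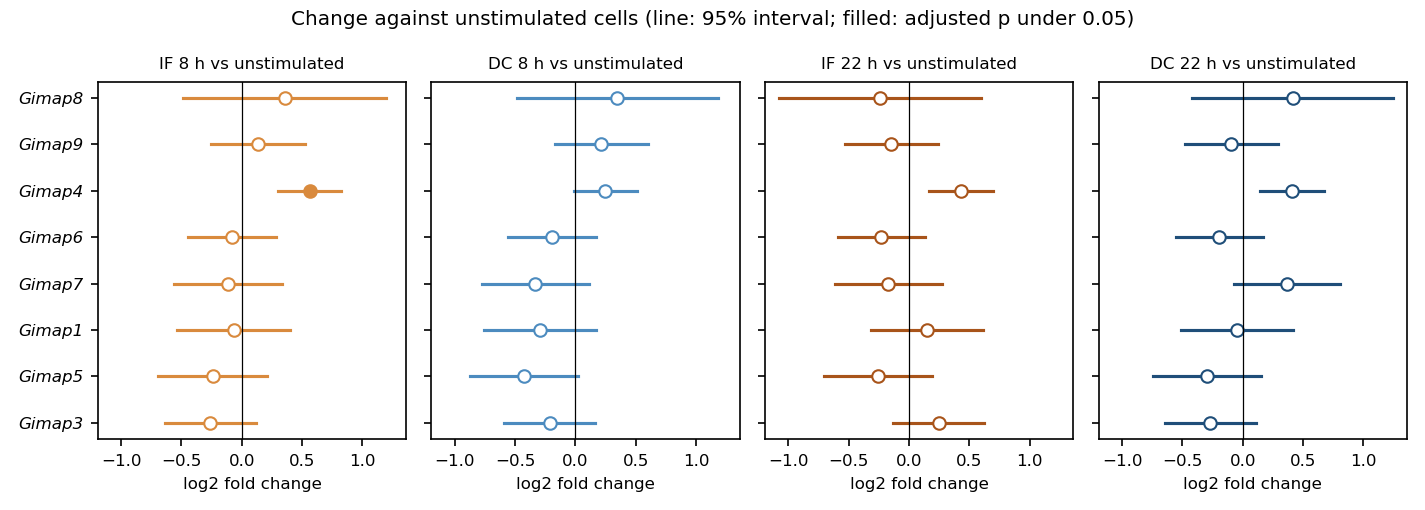
Log2 fold change of each member against unstimulated cells (horizontal axis) in the 4 stimulated groups. Circles are estimates, lines are 95% intervals, and a filled circle marks an edgeR adjusted p under 0.05, reached by Gimap4 at IF 8 h (0.56).

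Gimap5, needed for normal T cell numbers, was 94.3, 103 and 104 CPM in unstimulated cells and 73.1, 74.1 and 77.0 CPM at DC 8 h. Every DC 8 h library was below every unstimulated one, a pattern seen downwards in 15.2% of genes, and the log2 fold change was -0.43 ± 0.21 (edgeR adjusted p 0.267), or -0.16 with library size alone. Gimap5 means were 84.9 ± 18.6 CPM at 8 h and 84.0 ± 11.0 at 22 h with IF, and 81.9 ± 25.5 at 22 h with DC (SD, n = 3), each with a range that reached into the unstimulated one. Gimap1, also needed for peripheral T cells, was 127 ± 8.55 CPM in unstimulated cells (SD, n = 3). With IF it was 121 ± 10.2 CPM at 8 h and 140 ± 14.1 at 22 h, with DC 103 ± 27.4 and 123 ± 35.3, and neighbours in the order of these means overlapped throughout. Gimap6, the member linked to autophagy, was 215, 217 and 267 CPM in unstimulated cells and 188, 199 and 208 CPM at IF 22 h. All 3 IF 22 h libraries were lower, as for 14.7% of genes, with a log2 fold change of -0.23 ± 0.17 (edgeR adjusted p 0.488), or -0.029 with library size alone. Gimap6 means in the remaining groups were 220.3 ± 5.48 CPM with IF at 8 h, and 204 ± 27.2 and 203 ± 44.9 with DC at 8 h and 22 h (SD, n = 3).

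Gimap3, the closest relative of Gimap5, was 385, 396 and 464 CPM in unstimulated cells and 335, 342 and 361 CPM at IF 8 h. The IF 8 h libraries were all lower, as for 16.4% of genes, with a log2 fold change of -0.26 ± 0.18 (edgeR adjusted p 0.408), or -0.019 with library size alone. At 22 h Gimap3 was 426, 485 and 564 CPM with IF and 257, 365 and 412 CPM with DC, so all IF libraries were above all DC libraries, as for 10.7% of genes. That difference was 0.51 ± 0.18 on the log2 scale (edgeR adjusted p 0.153). From IF 8 h to IF 22 h the difference was also 0.51 ± 0.18 (adjusted p 0.192), again without overlap, as for 12.1% of genes. The IF 22 h group is common to both contrasts, and its higher values, 564 and 485 CPM, are those of replicates 2 and 3, whose mitochondrial rRNA stood apart. Without both, Gimap3 differed by 0.30 from DC 22 h (edgeR adjusted p 0.9748) and by 0.31 from IF 8 h (0.911). In DC 8 h libraries Gimap3 was 299, 376 and 398 CPM. The interaction, which asks whether the IF-DC difference changed between 8 h and 22 h, was 0.56 ± 0.25 for Gimap3 (edgeR adjusted p 0.601). It ran from 0.36 to 0.71 over 19 alternative settings.

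Gimap7 showed the largest time difference of the family with DC. It was 48.2, 53.2 and 77.1 CPM at DC 8 h and 89.0, 92.9 and 107 CPM at DC 22 h, without overlap, as for 6.88% of genes, and the log2 fold change was 0.70 ± 0.21 (edgeR adjusted p 0.193). With the replicate number as a block in the 6 DC libraries, Gimap7 rose by 0.71 (edgeR adjusted p 0.0462), as 1 of 8 members called, beside 1.63% of all genes in that fit. That pairing was chosen after seeing correlations of 0.12, 0.40 and 0.24 between same-numbered DC libraries, while DC pairs with different numbers ran from -0.31 to 0.12. Deviations from a group's mean cancel out over its 3 libraries, so higher values for same numbers bring lower ones for different numbers. The contrast is thus partly built in and does not show that the libraries were paired. Unstimulated libraries held 67.4, 77.3 and 79.9 CPM, all below DC 22 h, a pattern seen upwards in 12.8% of genes, with a log2 fold change of 0.37 ± 0.21 (edgeR adjusted p 0.314). With library size as the only scaling that value was 0.70 and Gimap7 was called (edgeR adjusted p 0.0446), as were 1586 of all genes, beside 840 with TMM. With IF, Gimap7 was 56.3, 70.1 and 80.9 CPM at 8 h and 55.7, 61.3 and 82.6 CPM at 22 h. All IF 22 h libraries were below all DC 22 h libraries, as for 9.11% of genes, a log2 difference of -0.54 ± 0.21 (edgeR adjusted p 0.208). The low values 55.7 and 61.3 CPM are those of replicates 3 and 2, whose mitochondrial rRNA stood apart, and without both the difference was -0.23 (edgeR adjusted p 0.977). The interaction for Gimap7 was -0.75 ± 0.30 (edgeR adjusted p 0.542), and ran from -0.98 to -0.44 over 19 alternative settings.

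Gimap9 was lower at 22 h than at 8 h with either stimulus, without a call. It was 57.6, 59.7 and 61.9 CPM at IF 8 h and 43.0, 49.6 and 55.1 CPM at IF 22 h, a log2 fold change of -0.28 ± 0.18 (edgeR adjusted p 0.520). Without IF 22 h replicates 2 and 3 it was -0.11 (edgeR adjusted p 0.987). With DC it was 59.3, 60.5 and 69.9 CPM at 8 h and 42.3, 55.0 and 55.8 CPM at 22 h, a log2 fold change of -0.31 ± 0.18 (edgeR adjusted p 0.684), or -0.16 without DC 22 h replicate 2. Neither pair of groups overlapped, a pattern seen downwards in 9.37% of genes with IF and 6.99% with DC. Unstimulated libraries held 42.7, 57.5 and 63.3 CPM of Gimap9 and overlapped with all 4 stimulated groups.

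Gimap8, the long member with 3 P-loops, spread widely within the IF 22 h group. In unstimulated cells it was 39.6, 48.3 and 57.2 CPM, and at IF 8 h 44.8, 68.6 and 72.3 CPM. At DC 8 h it was 57.5, 62.4 and 65.1 CPM and at DC 22 h 41.0, 73.1 and 79.5 CPM. At IF 22 h replicate 1 held 79.0 CPM, while replicates 2 and 3 held 19.8 and 24.6 CPM, the lowest levels of Gimap8 in the 15 libraries. These are the same libraries whose mitochondrial rRNA stood apart, and the part of that difference in the Gimap8 values was not tested. With all libraries, Gimap8 at IF 22 h differed from unstimulated cells by -0.24 ± 0.40 on the log2 scale (edgeR adjusted p 0.791). Without replicate 1 the value was -1.12 and past the threshold (edgeR adjusted p 0.0223), and without replicates 2 and 3 it was 0.71 (adjusted p 0.496), so the direction rests on which libraries are used. Against DC 22 h the value was -0.66 ± 0.39 with all libraries (edgeR adjusted p 0.465), -1.53 without replicate 1 (0.00293) and 0.29 without replicates 2 and 3 (0.977). Against IF 8 h it was -0.60 ± 0.40 (edgeR adjusted p 0.523), -1.47 without replicate 1 (0.00616) and 0.35 without replicates 2 and 3 (0.922). The Gimap8 interaction was -0.67 ± 0.56 (edgeR adjusted p 0.811) and -1.54 without replicate 1 (0.0366). Leaving out single libraries also moved the calls over all genes. They reached up to 947 against unstimulated cells, 759 against DC 22 h, 541 against IF 8 h and 279 for the interaction. With all libraries these counts were 658, 263, 121 and 0. Which library was left out for each highest count is not given here. A group left with 1 library was assumed to vary like the others.

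**Figure D4:**
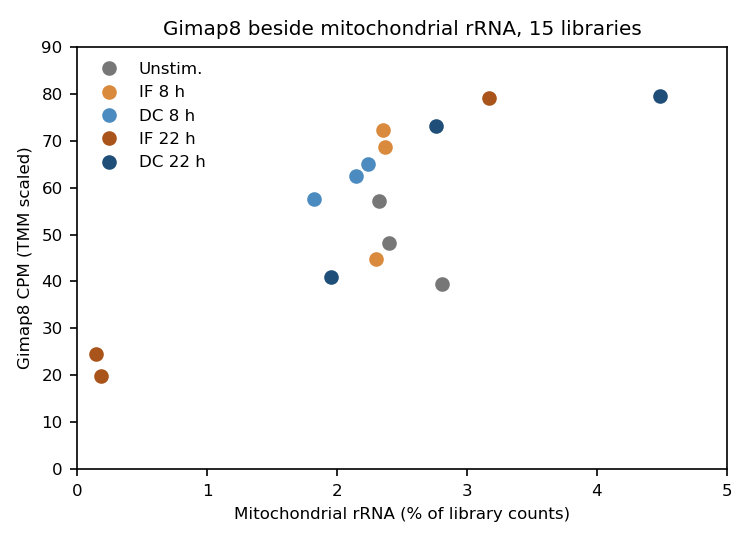
Gimap8 level in CPM (vertical axis, from 0) against the share of library counts in mitochondrial rRNA (horizontal axis, percent) for the 15 libraries, coloured by group. The 2 points at 0.179% and 0.146% are replicates 2 and 3 of IF 22 h, at 19.8 and 24.6 CPM.

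With edgeR and no pairing, 0 of 8 members were called between the stimuli or between the times. The background for IF against DC was 0.665% of all genes at 8 h (0.231% higher, 0.434% lower) and 2.43% at 22 h (1.23% higher, 1.2% lower). For 22 h against 8 h it was 1.12% with IF (0.637% higher, 0.48% lower) and 0.48% with DC (0.379% higher, 0.102% lower). In the same order, 1, 2, 1 and 1 members had an unadjusted p under 0.05, beside 8.27%, 15.3%, 15% and 9.03% of all genes. DESeq2 called 0 members in each, beside 1.8%, 5.2%, 3.38% and 1.94% of all genes. For the interaction edgeR called 0 of 8 members and 0 of all genes, 2 members (Gimap7 and Gimap3) and 7.92% of genes had an unadjusted p under 0.05, and DESeq2 called 0 members and 0.37% of genes. With the groups ordered by their mean for each gene, 29 of the 32 pairs of neighbours in the order overlapped, and over all genes 7.65% of such pairs did not. The 3 member pairs that did not were unstimulated below DC 8 h for Gimap4 and Gimap8, and unstimulated below DC 22 h for Gimap7.

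The members did not vary as 1 block across the libraries. Over the 15 libraries, Pearson's r between log2 CPM of member pairs ran from -0.42 (Gimap3 and Gimap8) to 0.76 (Gimap1 and Gimap3), with a median of 0.10 over 28 pairs. Gimap3 was highest and Gimap8 lowest in IF 22 h replicates 2 and 3, whose mitochondrial rRNA stood apart. Gimap5 and Gimap6 reached 0.67 and Gimap1 and Gimap6 reached 0.62. Pairs of other genes were not set beside these. Gimap4 correlated with these 3 genes at 0.23 (Gimap1), -0.07 (Gimap6) and -0.13 (Gimap5). Over the 12 stimulated libraries alone the same pairs gave 0.55, 0.48 and 0.49. These values describe libraries that share group and scaling, and no test was made. In the DC 22 h group, replicate 2 was the lowest library for 6 of 8 members and replicate 3 the highest for 7. In the DC 8 h group, replicate 2 was the lowest for 5.

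The genes whose pattern over the 15 libraries was most like the mean standardised level of the 8 members, among 6954 genes with a mean of at least 10 CPM, were Pitpnc1 (r = 0.90), Prss30 (0.90), Ccpg1 (0.85), Ppp1r13b (0.85) and Pik3ip1 (0.85). Pitpnc1 encodes a phosphatidylinositol transfer protein and Pik3ip1 an inhibitor of PI3 kinase. At the other end were Atp5b (-0.93) and Atp5g1 (-0.88), which encode ATP synthase subunits, Lsm6 (-0.89), Hprt (-0.88) and Nhp2l1 (-0.88). On the same measure Gimap6 and Gimap1 reached 0.81 each and Gimap4 reached 0.29, although each is part of the mean. Over the 12 stimulated libraries Igf1r came first with 0.95, Gimap6 reached 0.89 and Gimap4 0.64.

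Since promoters could be compared for genes that varied together, RefSeq promoter windows (GRCm38.p6, 250 bases before a start) were read for all 8 members, with 2 starts for Gimap8 and 9 windows in all. The windows of Gimap4, which rose, and of Gimap1 and Gimap3, the most correlated pair, are shown up to the first exonic base that the annotations give, with motif matches in capitals.
Gimap4 (chr6:48684328-48684548, plus strand): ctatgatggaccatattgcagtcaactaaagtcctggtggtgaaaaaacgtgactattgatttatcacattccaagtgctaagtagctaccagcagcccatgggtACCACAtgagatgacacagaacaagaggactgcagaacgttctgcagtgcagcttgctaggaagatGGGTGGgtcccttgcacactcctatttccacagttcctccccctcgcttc
Gimap1 (chr6:48738797-48739046, plus strand): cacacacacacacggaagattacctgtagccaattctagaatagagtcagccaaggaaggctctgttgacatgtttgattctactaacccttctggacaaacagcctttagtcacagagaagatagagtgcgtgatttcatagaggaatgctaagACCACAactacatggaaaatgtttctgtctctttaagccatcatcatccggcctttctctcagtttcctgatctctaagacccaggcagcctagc
Gimap3 (chr6:48770852-48771101, minus strand): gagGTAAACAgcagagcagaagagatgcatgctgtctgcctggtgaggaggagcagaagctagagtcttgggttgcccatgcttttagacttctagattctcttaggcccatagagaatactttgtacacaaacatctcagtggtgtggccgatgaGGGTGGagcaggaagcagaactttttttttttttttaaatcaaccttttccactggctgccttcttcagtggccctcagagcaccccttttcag
The capitals mark, in order, a RUNX and a KLF match in Gimap4, a RUNX match in Gimap1, and a FOXO and a KLF match in Gimap3. Both strands were searched, and motif matches that overlap each other were not merged. The RUNX letters TGTGGT were in 3 of the 9 windows (Gimap1, Gimap4 and Gimap7) and in 14.05% of 32851 promoter windows of the same length. The KLF letters CCACCC were in 5 of 9 and in 28.1% of all windows, and the FOXO letters TGTTTAC were in 1 of 9 and in 3.17%. The KLF matches of Gimap8 and Gimap9 lay at or past the first annotated exonic base, and the Gimap8 windows overlap each other. The TATA letters TATAAA were in 1 of 9 (Gimap6) and in 12.4% of all windows. No member window held CCGGAA, 1 form of the ETS site (12.03% of all windows), the TCF/LEF letters CTTTGAT (3.21%) or the Ikaros letters TGGGAA (21.6%). Shorter and other forms of the ETS site were not searched, so their absence is not shown. Gimap1 and Gimap3 shared none of the motifs searched.

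Among genes tied to GIMAP proteins, Bcl2 fell and Bcl2l11 rose in all 4 stimulated groups. Of 15 genes of the BCL2, ATG8 and GSK3 groups, edgeR called 1 higher and 1 lower with IF at both times, and with DC 2 higher and 1 lower at 8 h and 2 and 2 at 22 h. The shares of all genes in these comparisons were those given for the members. Bcl2, which protects mitochondria and resting T cells from death, fell from 280 ± 39.7 CPM in unstimulated cells to 96.0 ± 11.8 at IF 8 h and 93.5 ± 14.6 at DC 8 h (SD, n = 3). The log2 fold changes of Bcl2 were -1.55 and -1.58 at 8 h (IF, then DC) and -1.18 and -0.87 at 22 h (largest edgeR adjusted p 0.0135). Bcl2l11, which encodes the death-promoting protein BIM, rose by 2.49, 1.89, 2.01 and 1.22 in the same order (largest edgeR adjusted p 0.00348). Bcl2l1, which encodes the survival protein BCL-XL, rose with DC by 2.36 at 8 h and 1.75 at 22 h (edgeR adjusted p 0.00272 and 0.0166). It differed between IF and DC by -2.02 at 8 h and -1.99 at 22 h (edgeR adjusted p 0.0356 and 0.0167). Dendritic cell markers also differed between IF and DC: at 8 h 11 of the 18 were higher in every DC library than in every IF library and 2 lower, and at 22 h 5 were higher and 1 lower. Fscn1, named after its values were seen, was 5.83 to 43.8 CPM at IF 22 h and 72.8 to 94.7 CPM at DC 22 h. The part of these markers in the Bcl2l1 values was not tested. Map1lc3b, an ATG8 family member named after its values were seen, fell by 0.78 at DC 22 h (edgeR adjusted p 0.0266). The median log2 fold change of the 15 genes was -0.09, -0.14, -0.24 and -0.30 in the same order.

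**Figure D5:**
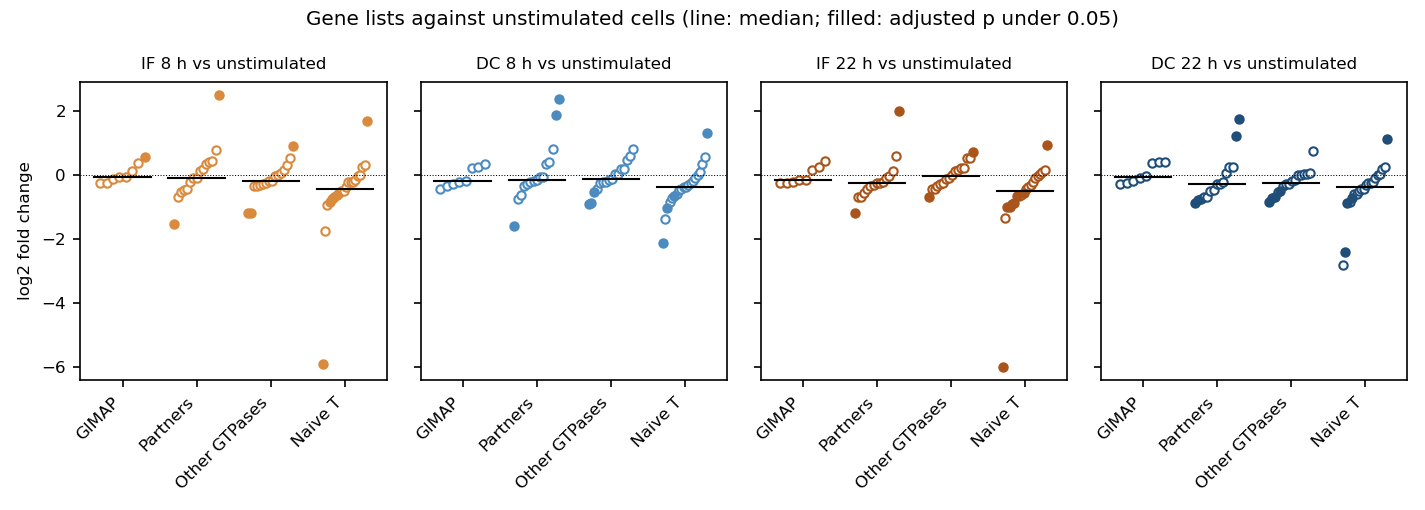
Log2 fold change against unstimulated cells (vertical axis) for the 8 GIMAP genes, 15 partner genes of the BCL2, ATG8 and GSK3 groups, 16 small GTPases of other families and 20 genes of naive T cells, in the 4 stimulated groups. Each circle is a gene, filled where the edgeR adjusted p is under 0.05, and lines are medians. GIMAP values stay between -0.43 and 0.56.

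Of 20 genes of naive and resting T cells, edgeR called 1 higher in every group, with 4 lower at 8 h and 6 lower at 22 h with IF, and 3 lower at both times with DC. Of all genes, 2.63% to 3.41% were called higher and 3.44% to 4.72% lower in these 4 comparisons. The naive list's median log2 fold changes were -0.44, -0.37, -0.51 and -0.39, beside 0.02, 0.04, 0.01 and 0.04 for all genes. Igfbp4, an insulin-like growth factor binding protein that marks naive CD8 T cells, fell by 5.92 at IF 8 h (edgeR adjusted p 7.68e-06), and the transcription factor gene Bach2 rose by 1.68 (0.000482). Of 16 small GTPases of other families, 1 was called higher and 2 lower after 8 h with IF and 1 and 1 after 22 h, while with DC 0 were higher and 3 (8 h) and 4 (22 h) lower, against the same shares of all genes. Among 5 tested genes that flank the GIMAP genes, Tmem176b was called, with log2 fold changes of 1.75 (8 h) and 1.79 (22 h) with DC and 1.18 with IF at 22 h (edgeR adjusted p 0.00367, 0.00313 and 0.0411). Tmem176b is also known from dendritic cells, and the part of the DC markers in its values was not tested. No flanking gene was called at IF 8 h, the comparison in which Gimap4 was.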

How the data were processed

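RNA was profiled in 15 libraries by an adapted CEL-seq protocol, which primes from oligo-dT and reads 3′ ends, per the labels' protocols. The deposited tables hold whole-number counts per gene, without normalization. The submitters' processing notes name BWA and mm10. The counting program, annotation, strand setting and use of molecular identifiers were not given in the sources used here, and amplified reads need not be independent molecules. Reads were not reprocessed.

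The tests used edgeR 4.0.16 under R 4.3.3. Genes were kept by filterByExpr (minimum count 10, minimum total 15), leaving 10831 of 17493, and at most 0.124% of a library's counts lay outside them. With TMM (trimmed mean) scaling, 1 quasi-likelihood fit covered the 15 libraries, a mean for each of the 5 groups, and 9 two-sided comparisons were made with Benjamini-Hochberg adjustment over all genes tested and a threshold of 0.05. SE values were derived from the F statistic, and 95% intervals from the t distribution, so both are approximate. Replicates of a group differed by 9.50 to 98.1 chi-square units per degree of freedom, well above sampling noise, so none was merged. CPM values are mean ± SD over 3 libraries unless single libraries are given.

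All 8 members are named. From each list of other genes at most 3 called genes per comparison, by smallest p, are named. Likeness is Pearson's r of log2 CPM (prior count 2) with the members' mean standardised level, and the 5 highest and 5 lowest genes are named. The members and the lists were chosen with earlier results of these data known. Positions, coding sequences and overlaps come from GENCODE vM21, and promoters from RefSeq. Coding stretches were searched by translation for the P-loop pattern. The fitting was tested on simulated data. Alternatives were DESeq2 1.42.0, DESeq2 size factors, library size alone, no low-count filter, only the groups compared, a block for the replicate number, and leaving out libraries. Same-numbered libraries of DC 8 h and DC 22 h deviated together from their group means (3 pairs, r 0.12 to 0.40, beside -0.31 to 0.12 for different numbers, so the lowest same-numbered pair did not stand apart), and on the rule of r above 0.1 these groups were also compared with the number as a block. The labels give the number as a donor and do not say whether it is the same animal across groups. In no other pair of groups did all 3 pairs exceed 0.1. Deviations cancel out within a group, so the contrast between same and different numbers is partly built in. The reading of Gimap8 without IF 22 h replicate 1, 1 of these, was singled out after seeing the data.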

Additional observations from a re-analysis of the deposited data

How the results depend on the processing

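Of 952 member values recomputed under the alternatives, 858 kept their direction and their side of the threshold, 80 changed sign with neither value past the threshold, 12 were past it only in the alternative and 2 only in the reported fit. The number of members called was 1 at IF 8 h against unstimulated cells, and 0 to 1 when each library was left out in turn. With library size alone it was 1 after 8 h and 2 after 22 h with DC, and 1 after 22 h with IF (reported: 0 each). That scaling called 1079, 1586 and 838 of all genes in these comparisons, beside 739, 840 and 658 in the reported fit. With only the groups compared the number of members called was 1 at IF 22 h, and with DESeq2 1 at IF 22 h and 1 at DC 22 h. Leaving out each library gave 0 to 1 members at IF 22 h against unstimulated cells, for IF against DC at 22 h, for IF 22 h against IF 8 h and for the interaction, and the 1 was Gimap8 without IF 22 h replicate 1 in each. Gimap8 at IF 22 h against unstimulated cells ranged from -1.12 to 0.087 when each library was left out in turn. It reversed from -0.24 to 0.087 without replicate 2, 0.029 without replicate 3 and 0.71 without both. Without both it also reversed to 0.29 against DC 22 h, 0.35 against IF 8 h and 0.28 for the interaction. The counts of all genes called moved by over 1.5 times under some alternatives: from 840 at IF 8 h to between 419 and 1299, from 739 at DC 8 h to between 404 and 1175, from 658 at IF 22 h to between 99 and 1101, and from 840 at DC 22 h to between 454 and 1586. For IF against DC the counts went from 72 to between 27 and 215 at 8 h and from 263 to between 8 and 759 at 22 h. Between times they went from 121 to between 0 and 541 with IF and from 52 to between 0 and 251 with DC, and for the interaction from 0 to at most 279. With library size alone, 76.3%, 79.6%, 74.1% and 85.4% of calls against unstimulated cells were higher (IF and DC at 8 h, then at 22 h), beside 39.2%, 40.3%, 43.3% and 43.9% with TMM, and 32.8% beside 50.6% for IF against DC at 22 h. For the 9 pairs of groups other than DC 8 h and DC 22 h, the replicate numbers did not pair the libraries, and over all groups 9 of 15 libraries correlated best with their own number. A fit with the replicate number as a block over all 15 libraries called 1 member at IF 8 h and 0 elsewhere, as without it. The replicate block within the DC 8 h and DC 22 h libraries, an alternative chosen after seeing the data, called 1 member (Gimap7) and 166 genes between the times, beside 0 and 52 without it. Each member had at least 135 counts in every library, and groups held 3 libraries. The cause of these changes was not tested.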
